A study of Arabidopsis thaliana with 24 samples.

Results

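Tetraploid and diploid seedlings of the Arabidopsis thaliana ecotype Ler were compared by RNA sequencing. Ler (Landsberg erecta) is a laboratory accession that differs from the reference accession Col-0 at many loci. The comparison takes in 23059 genes, all those of the authors' deposited table for Ler, out of 24900 genes in the 2 tables of the series that hold RNA results. It rests on 4 of the 24 libraries of the series, 2 from diploid Ler (2xLer) and 2 from tetraploid Ler (4xLer). Per the labels, both groups were seedlings 2 weeks old, grown in soil at 22 °C. The growth protocol names a 16 h and an 8 h photoperiod and does not tie either to these libraries. No allele, transgene or treatment other than ploidy separates the groups in the labels. The labels do not say how the tetraploid line was made, how many lines it stands for, or whether the libraries of a group came from separate plantings. Spread within a group may for that reason be technical, and the p-values rest on it. The study compared transcripts and H3K27 trimethylation between ploidies, and only the transcripts of Ler are treated here.

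An autotetraploid carries duplicates of its own chromosome set and as a rule has larger cells and nuclei than the diploid it came from. All genes are duplicated alike, so their dosage relative to each other is kept. Values here are relative within a library, and a change in RNA per cell shared by all genes was not measured. In whole seedlings, more cells of a type and more RNA per cell cannot be told apart.

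The deposited table gives no value per library. Its means are printed to 15 digits, and each is the average of 4 whole read counts divided by 4 size factors, so the 4 counts behind a mean could be solved for. This gave the counts of 23048 of 23059 genes. The 11 not solved had the highest means, and 0 of them were called. Libraries could be placed by ploidy but not by replicate number, so they are named a and b within a ploidy, and paired values are given in that order. Recovered totals ran from 18133023 to 21210029 reads and size factors from 0.920 to 1.08. A normalized read is a read divided by the size factor of its library. The table does not state which ploidy is the numerator. Fold changes were read as tetraploid over diploid, from the companion Col-0 table, where this reading gives the higher FLC of tetraploid Col-0 and the low ESP and high ESM1 for which Col-0 is known in its diploid libraries. On the same reading tetraploid Col-0 had ESP higher by 6.94 ± 0.07 and ESM1 lower by 3.93 ± 0.07 on the log2 scale in the authors' deposited table, which is not the pattern of Col-0, and whether the Col-0 lines differ in more than ploidy was not tested. Every direction below, and which recovered libraries are called diploid, depends on that reading.

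The 4 libraries did not spread evenly. Over 15627 genes with a mean of at least 50, Pearson correlations of log2 values across genes were 0.992 within 2xLer, 0.994 within 4xLer and 0.971 to 0.983 between ploidies. These are correlations across genes, which are not independent replicates. The first principal component held 76.5% of the variance and placed 2xLer library b between 2xLer library a and the tetraploids. Library b lay above library a in 490 of the 596 genes called higher in the tetraploid (82.2%) and below it in 278 of the 356 called lower (78.1%). Over all 18672 tested genes with counts, b was above a in 49.9%. The diploid library nearer to the tetraploids was thus the same for most called genes.

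The authors' deposited table gave an adjusted p to 18683 genes, and 952 of them, 5.10%, passed 0.05. Of these, 596 were higher in the tetraploid (3.19% of the genes tested) and 356 were lower (1.91%). Genes called higher moved further than genes called lower, with a median log2 fold change of 0.76 against −0.46 in the authors' deposited table. At 4-fold or more, 93 genes were higher and 6 lower, and at 8-fold or more 55 and 2. Genes called higher were also less abundant, with a median of 457 against 1304 normalized reads. Both libraries of 1 ploidy lay above both of the other in all 952 called genes, and in 54.8% of all tested genes with counts. The median log2 fold change of all tested genes was −0.01.

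The number of calls varied with the spread assumed. An empirical null, which scales the Wald statistics by their own spread of 1.23 times the theoretical one, left 418 of the 952 calls, 294 higher and 124 lower. A limma fit to the recovered counts called 1948 genes and included 949 of the 952. Leaving out 2xLer library b in limma gave 3255 calls, leaving out 2xLer library a 995, 4xLer library a 545 and 4xLer library b 417. No gene called in the authors' deposited table changed sign and remained called in any of these fits. Each fit with a library left out has 1 ploidy with a single library, takes its spread from the 2 libraries of the other ploidy, and assumes that the lone library varies like them. The empirical null and these fits are named beside a gene below where they ended its call.

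**Figure D1:**
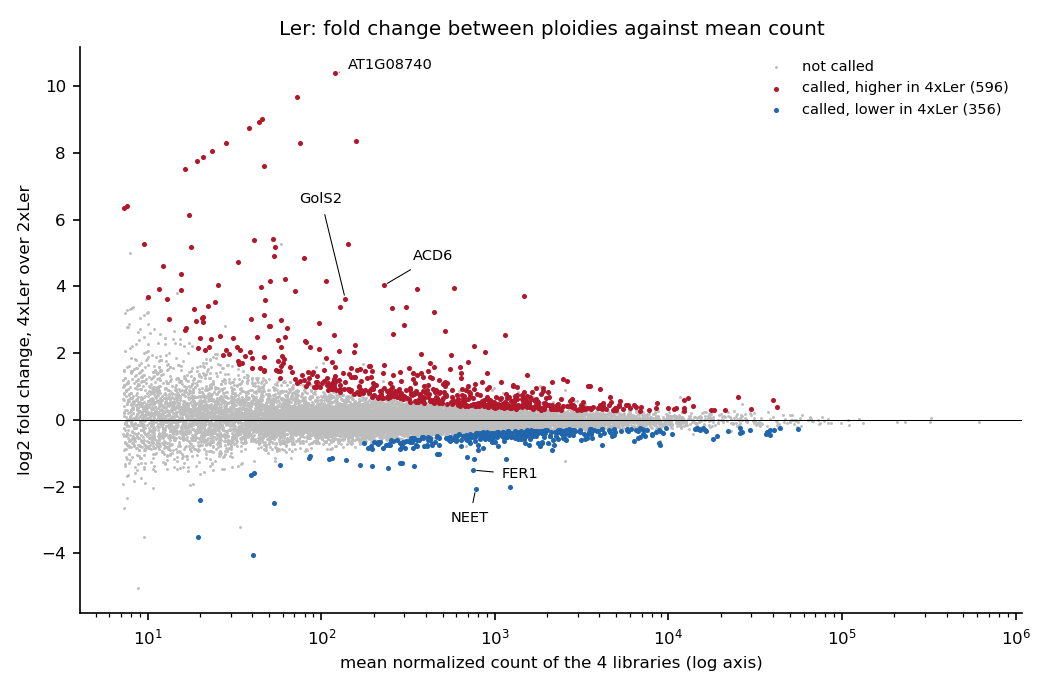
Log2 fold change, tetraploid over diploid, of each tested Ler gene against its mean normalized read count on a log axis, from the authors' deposited table, with called genes coloured by direction. The 596 genes called higher reach larger changes and lower counts than the 356 called lower, whose points lie mostly close to the bulk at higher counts.

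The 12 called genes with the highest fold changes at a mean of at least 100 included regulators of defence and cell surface proteins. ACD6, an ankyrin-repeat membrane protein that promotes salicylic acid defence, had 25.1 and 27.9 normalized reads in the diploid and 507 and 355 in the tetraploid libraries, a 16.3-fold difference in the authors' deposited table (log2 4.03 ± 0.29, adjusted p = 7.8e-40). Both tetraploid libraries stood more than an order of magnitude above both diploid ones. AT5G10760, which encodes an aspartyl protease family member, had 44.5 and 62.8 against 639 and 485 normalized reads (authors' deposited table, log2 3.39 ± 0.24, adjusted p = 9.3e-43). ECS1, a small cell wall protein, had 173 and 240.1 against 2974 and 2476 (authors' deposited table, log2 3.72 ± 0.26, adjusted p = 5.5e-43). PCR1, of the PLANT CADMIUM RESISTANCE family of metal transporters, had 51.0 and 90.7 against 1290 and 908 (authors' deposited table, log2 3.96 ± 0.46, adjusted p = 3.2e-15). In each of these 4 genes the gap between the ploidies was wider than the gap within either. AIG1, a GTP-binding protein first described as induced during recognition of a bacterial effector, had 18.6 and 25.9 against 285 and 182 (authors' deposited table, log2 3.40 ± 0.35, adjusted p = 6.8e-19). An entry named No_0_AT3G22231, after an accession and a locus code that the reference gene table gives to PCC1, had 39.0 and 49.8 against 781 and 548 (authors' deposited table, log2 3.91 ± 0.24, adjusted p = 3.0e-53).

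GolS2, a galactinol synthase that makes the first precursor of raffinose sugars, rose 12.3-fold, with 15.8 and 25.9 against 269 and 239 normalized reads in the 2 ploidies (authors' deposited table, log2 3.62 ± 0.33, adjusted p = 1.4e-24). AT1G35617 and AT1G08740 gave the largest values of the 12, log2 8.36 ± 1.05, adjusted p = 5.9e-13, and 10.41 ± 1.47, adjusted p = 3.8e-10 in the authors' deposited table, from diploid libraries with 0 or 1 read each. AT2G26630 had 53.8 and 36.9 against 440.1 and 484 (authors' deposited table, log2 3.34 ± 0.24, adjusted p = 9.9e-40). AT1G13470 had 5.57 and 16.9 against 249.5 and 153 (authors' deposited table, log2 4.17 ± 0.76, adjusted p = 4.2e-06) and AT2G34655 had 10.2 and 3.98 against 253 and 304 (authors' deposited table, log2 5.28 ± 0.45, adjusted p = 7.5e-29). The last pair rested on few diploid reads. The log2 ratio of means of AT1G13470 was 3.57 without 2xLer library a and 5.18 without library b, and that of AT2G34655 was 6.13 and 4.77. All 12 stayed called under the empirical null and with any library left out.

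Among the 12 lowest were 3 genes of iron storage and iron-sulfur chemistry. NEET, an iron-sulfur protein of chloroplasts and mitochondria, had 1291 and 1211 normalized reads in the diploid and 244 and 357 in the tetraploid libraries, 4.18-fold lower in the authors' deposited table (−2.06 ± 0.16, adjusted p = 4.7e-34). The ferritins FER1 and FER4, which store iron in plastids, had 1159 and 1039 against 352 and 423 and 1056 and 1042 against 438 and 486 normalized reads (authors' deposited table, log2 −1.51 ± 0.14, adjusted p = 8.4e-23, and −1.18 ± 0.13, adjusted p = 2.1e-16). In all 3 both tetraploid libraries lay far below both diploid ones. DAR6, a relative of the growth regulator DA1, had 418 and 409 against 166 and 174 (authors' deposited table, log2 −1.28 ± 0.19, adjusted p = 2.2e-09). AT3G16670 had the second lowest value, with 2066 and 1831 against 397 and 569 (authors' deposited table, log2 −2.01 ± 0.27, adjusted p = 1.4e-11).

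The other 7 of these 12 have no role named here. AT1G13650 had 1768 and 1461 against 728 and 701 normalized reads (authors' deposited table, log2 −1.18 ± 0.13, adjusted p = 1.4e-17). The neighbouring loci AT4G13572 and AT4G13575 had 271 and 209 against 105 and 81.5 and 459 and 346 against 145 and 184 (authors' deposited table, log2 −1.36 ± 0.26, adjusted p = 1.6e-05, and −1.29 ± 0.21, adjusted p = 2.6e-07). AT2G46250 had 411 and 301 against 133 and 128, AT3G55710 266 and 297 against 122 and 93.5, AT5G38300 554 and 427 against 168 and 211 and AT5G59400 201 and 187 against 72.7 and 95.7. Their log2 fold changes ran from −1.45 ± 0.22 in AT2G46250 to −1.21 ± 0.27 in AT5G59400 in the authors' deposited table. No library of the diploid overlapped with one of the tetraploid in any of the 12. The same held for all 952 called genes and for 54.8% of all tested genes with counts. None of the 12 lost its call under the empirical null.

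**Figure D2:**
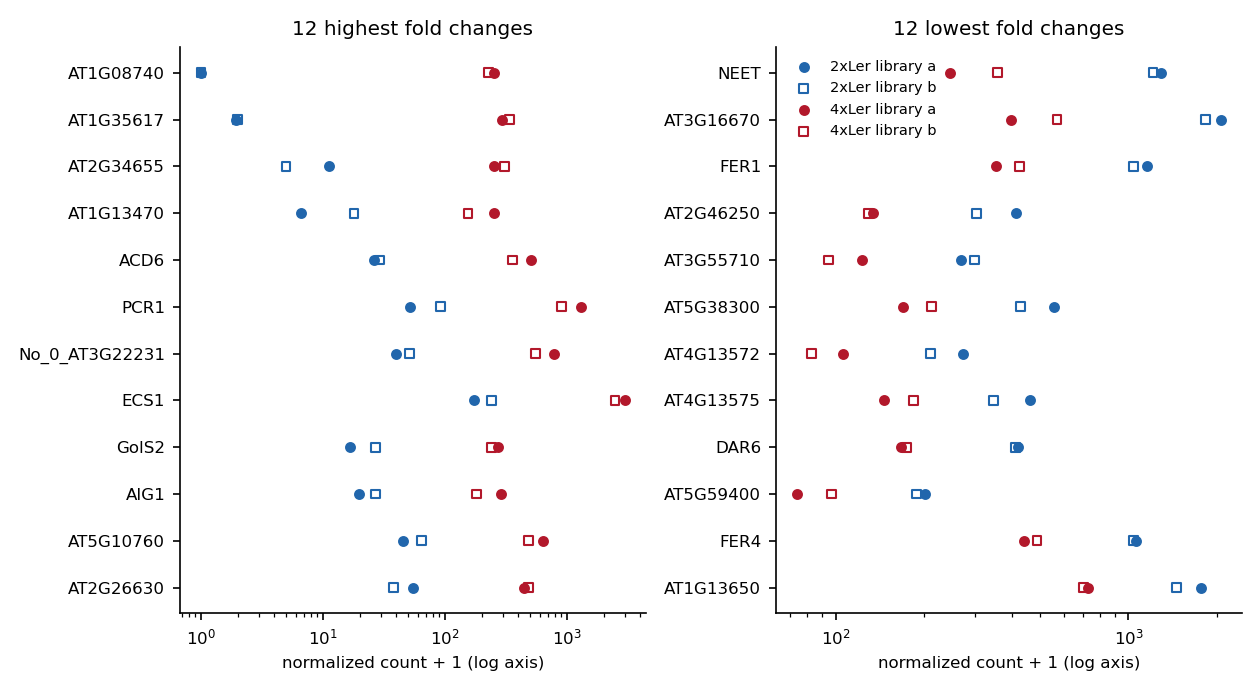
Normalized reads plus 1 in each of the 4 libraries, on a log axis, for the 12 genes with the highest and the 12 with the lowest fold changes at a mean of at least 100. Points are single libraries coloured by ploidy, and the diploid and tetraploid points do not overlap in any gene, as in all 952 called genes.

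Calls in families of cell surface receptors were mostly in the higher direction, beside 3.19% higher and 1.91% lower over all tested genes. Cysteine-rich receptor kinases, which carry an extracellular domain with conserved cysteines and are often induced by pathogens, had 7 members higher and 0 lower among 26 tested (26.9% called), with a median log2 fold change of 0.20 against −0.01 over all tested genes. ARCK1, a kinase of this family that lacks the extracellular domain, had 9.28 and 8.97 normalized reads in the diploid and 139.5 and 126 in the tetraploid libraries (authors' deposited table, log2 3.86 ± 0.46, adjusted p = 4.2e-14). EP1, whose locus is also known as CRK9, had 22.3 and 29.9 against 123 and 147 (authors' deposited table, log2 2.37 ± 0.37, adjusted p = 2.5e-08). CRK7 and CRK10 had 3.71 and 3.98 against 50.1 and 31.5 and 169 and 217 against 343 and 328 (authors' deposited table, log2 3.41 ± 0.77, adjusted p = 6.4e-04, and 0.80 ± 0.20, adjusted p = 0.0036). Of these 4 genes CRK7 had few reads. Genes of this family lie in tandem and resemble each other, so reads may have been divided unevenly among them.

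Receptor-like proteins, which have extracellular leucine-rich repeats and no kinase, had 5 of 37 higher and 0 lower (13.5% called, median 0.11). RLP23, the receptor of a peptide found in necrosis-inducing proteins of microbes, had 5.57 and 4.98 normalized reads in the diploid and 104 and 64.1 in the tetraploid libraries (authors' deposited table, log2 4.00 ± 0.61, adjusted p = 1.3e-08). SOBIR1, the kinase that RLP23 and related receptors signal through, had 242 and 278 against 682 and 545 (authors' deposited table, log2 1.24 ± 0.17, adjusted p = 3.8e-10). Receptor and partner kinase were thus both called higher. SOBIR1 was the 1 called of 14 tested genes of pattern-triggered immunity, 7.14% beside 5.10% over all tested genes. RLP38, RLP41 and RLP35 also rose, with 2.76 ± 0.43, 2.17 ± 0.42 and 1.48 ± 0.30 in the authors' deposited table. Of 5 wall-associated kinases tested, 2 rose and 1 fell. WAK1 and WAK2, which bind pectin, had 123 and 183 against 695 and 496 and 129.9 and 136 against 279 and 227 (authors' deposited table, log2 1.96 ± 0.22, adjusted p = 1.9e-16, and 0.93 ± 0.23, adjusted p = 0.0024), and WAKL7 fell by 0.83 ± 0.25 there. Lectin receptor kinases had 3 of 26 higher and 1 lower. AT2G37710 rose by 0.74 ± 0.13, AT4G02420 by 0.62 ± 0.13 and AT3G08870 by 2.103 ± 0.59, and AT3G45440 fell by 0.78 ± 0.23 in the authors' deposited table. The empirical null ended the calls of CRK10, WAKL7, AT3G08870 and AT3G45440 (adjusted p from 0.054 to 0.18). In limma with 1 library left out, calls ended for CRK10, WAK2 and WAKL7 without 4xLer library a, AT3G08870 without 4xLer library b, and AT3G45440 without any library but 2xLer library b (adjusted p from 0.055 to 0.11).

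Calcium signalling lists had 1 or 2 members called each, beside 5.10% called over all tested genes. Of 30 CIPK and CBL calcium sensors 1 rose and 1 fell (6.67% called), with 0 higher and 0 lower under the empirical null. Among 10 calmodulin-like proteins 1 rose, TCH3, a calcium sensor induced by touch, with 129.9 and 175 normalized reads in the diploid and 428 and 395 in the tetraploid libraries (authors' deposited table, log2 1.43 ± 0.21, adjusted p = 8.5e-10). CNGC3 rose among 15 cyclic nucleotide-gated cation channels, with 89.1 and 119.5 against 304 and 273 (authors' deposited table, log2 1.47 ± 0.24, adjusted p = 8.9e-08). The glutamate receptor-like channels moved in both directions, GLR2.7 by 0.98 ± 0.30 and GLR3.4 by −0.49 ± 0.13 in the authors' deposited table, as 2 of 9 tested. Of 23 calcium-dependent kinases CPK29 rose (0.78 ± 0.25), and of 40 members of the MAP kinase cascade MKK2 rose (0.46 ± 0.14) and MPK17 fell (−0.46 ± 0.11) in the authors' deposited table. These shares, 4.35% and 5%, were not above that over all tested genes. Under the empirical null GLR2.7, GLR3.4, CPK29 and MKK2 were no longer called (adjusted p from 0.1 to 0.23). With 1 library left out in limma, no call remained for GLR3.4 and MPK17 without 4xLer library b, GLR2.7 without either tetraploid library, and CPK29 and MKK2 without any library but 2xLer library b (adjusted p from 0.063 to 0.18).

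Genes with roles in defence were called in a few members of several lists. SARD1, which activates genes of salicylic acid synthesis and was the 1 called of 7 genes of systemic acquired resistance, had 9.28 and 9.96 normalized reads in the diploid and 119 and 50.01 in the tetraploid libraries (authors' deposited table, log2 3.14 ± 0.56, adjusted p = 2.9e-06). The tetraploid libraries differed from each other more than 2-fold, and the log2 ratio of means was 2.38 without 4xLer library a. PBS3, which conjugates isochorismate to glutamate in salicylic acid synthesis, had 39.0 and 14.9 against 89.4 and 101 normalized reads (authors' deposited table, log2 1.81 ± 0.44, adjusted p = 0.0021), and its log2 ratio was 2.67 without 2xLer library a and 1.29 without library b. Of 47 WRKY factors 3 rose and 0 fell, 6.38% called beside 5.10% over all tested genes, with a median of 0.17. WRKY70 and WRKY54, related factors that act in salicylic acid signalling, had 60.3 and 61.8 against 268 and 226 and 13.9 and 16.9 against 61.9 and 63.1 (authors' deposited table, log2 2.02 ± 0.26, adjusted p = 6.8e-12, and 2.02 ± 0.50, adjusted p = 0.0024). WRKY33, which activates synthesis of the phytoalexin camalexin, had 39.0 and 51.8 against 139 and 107 (authors' deposited table, log2 1.44 ± 0.35, adjusted p = 0.0017).

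Of 6 camalexin genes tested, WRKY33 and GSTF6 were the 2 called, both higher, beside 5.10% called over all tested genes. PAD4, a lipase-like partner of EDS1 in immunity, rose by 0.76 ± 0.25 in the authors' deposited table, with an adjusted p of 0.043, and was the 1 called of 13 genes of nonhost cell death. Plant defensins and thionins, small antimicrobial proteins, had 0 called of 10 in the authors' deposited table, 0 at an unadjusted p under 0.05 and 0 higher and 0 lower in limma, with a median of −0.01. Among 21 U-box ubiquitin ligases 2 rose and 0 fell. PUB19, which acts in drought responses, had 122 and 155 normalized reads in the diploid and 939 and 834 in the tetraploid libraries, 6.39-fold higher in the authors' deposited table (2.68 ± 0.17, adjusted p = 1.4e-50). The 4 values of PUB19 formed a tight pair in each ploidy. PUB24, known as a negative regulator of immune signalling, had 14.8 and 16.9 against 57.0 and 44.6 (authors' deposited table, log2 1.68 ± 0.53, adjusted p = 0.035). JAR1, which makes the active jasmonate conjugate, rose by 0.42 ± 0.12 and GH3.9, of the same enzyme family, fell by 0.77 ± 0.20 in the authors' deposited table, and with PBS3 they were the 3 called of 9. PAD4, PUB24, JAR1 and GH3.9 were not called under the empirical null (adjusted p from 0.08 to 0.24). Leaving out 1 library in limma ended the calls of PBS3 and GH3.9 without 4xLer library b, WRKY33 and PAD4 without 4xLer library a, PUB24 without either tetraploid library, and JAR1 without any library but 2xLer library b (adjusted p from 0.052 to 0.16).

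Glutathione transferases of the phi class had 5 of 9 members higher and 0 lower (55.6% called beside 5.10% over all tested genes), with a median of 0.62. These enzymes attach glutathione to reactive or foreign compounds. GSTF2 had 285 and 404 normalized reads in the diploid and 1323 and 1493 in the tetraploid libraries (authors' deposited table, log2 2.03 ± 0.16, adjusted p = 3.9e-35), and GSTF6 had 212 and 221 against 565 and 638 (authors' deposited table, log2 1.47 ± 0.17, adjusted p = 1.3e-15). GSTF7, a close neighbour and relative of GSTF6, had 0.928 and 5.98 against 113 and 92.4 (authors' deposited table, log2 4.93 ± 0.67, adjusted p = 6.9e-11). GSTF6 and GSTF7 are similar enough that reads may be split between them, and the log2 ratio of GSTF7 was 4.10 without 2xLer library a and 6.79 without library b. GSTF9 rose by 0.51 ± 0.11 in the authors' deposited table. The larger tau class had 1 higher and 1 lower of 17, GSTU20 with 0.34 ± 0.11 and ERD9 with −0.32 ± 0.08 in the authors' deposited table.

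Other enzymes and exporters of specialised compounds moved less uniformly. Cytochrome P450 genes had 9 higher and 5 lower of 130 tested (10.8% called beside 5.10% over all tested genes). CYP71B23 had 6.50 and 7.97 normalized reads in the diploid and 83.5 and 91.3 in the tetraploid libraries (authors' deposited table, log2 3.60 ± 0.54, adjusted p = 7.1e-09) and CYP72A8 72.4 and 102 against 215 and 207 (authors' deposited table, log2 1.28 ± 0.26, adjusted p = 1.1e-04), while CYP81H1 had 3257 and 2909.9 against 1979.6 and 2060.1 and fell (authors' deposited table, log2 −0.61 ± 0.10, adjusted p = 1.2e-07). Of 47 UDP-glycosyltransferases 2 rose, a share of 4.26% that was below that over all tested genes. These were UF3GT, which decorates anthocyanins, by 0.76 ± 0.15 and UGT72E1, which acts on lignin precursors, by 1.00 ± 0.29 in the authors' deposited table. ABC transporters of class G had 5 higher and 0 lower of 37 (13.5% called). PEN3, needed for resistance to fungi that do not normally infect Arabidopsis, had 1143 and 1411 against 2621 and 2345 (authors' deposited table, log2 0.96 ± 0.12, adjusted p = 5.2e-13). ABCG25, an exporter of abscisic acid, had 184 and 204 against 362 and 367 (authors' deposited table, log2 0.91 ± 0.19, adjusted p = 1.4e-04), and ABCG22 and ABCG19 rose by 0.35 ± 0.09 and 0.47 ± 0.13 there. Classes B and C had 0 higher and 2 lower of 28 (7.14% called), ABCB26 with −0.61 ± 0.10 and the vacuolar pump ABCC2 with −0.39 ± 0.10 in the authors' deposited table. Calls lost to the empirical null were GSTU20, ERD9, UGT72E1, ABCG22, ABCG19 and ABCC2 (adjusted p from 0.064 to 0.22). Calls ended in limma for GSTF9 without 4xLer library b, UGT72E1 and ABCG22 without 4xLer library a, and GSTU20, ERD9, ABCG19 and ABCC2 without any library but 2xLer library b (adjusted p from 0.051 to 0.37).

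Some sugar, amino acid and sulfate transporters rose. Of 21 sugar transporters tested 5 were higher and 0 lower (23.8% called beside 5.10% over all tested genes), with a median of 0.26. SWEET12, which with SWEET11 exports sucrose for loading into the phloem, had 87.2 and 137 normalized reads in the diploid and 308 and 386 in the tetraploid libraries (authors' deposited table, log2 1.63 ± 0.24, adjusted p = 5.9e-09). SWEET11 itself had 1848 and 2728 against 4439 and 4773 (authors' deposited table, log2 1.01 ± 0.28, adjusted p = 0.011), and SWEET13 125 and 228 against 381 and 412 (authors' deposited table, log2 1.17 ± 0.24, adjusted p = 9.1e-05). In each SWEET gene 2xLer library b lay above library a, as in 82.2% of all genes called higher. The hexose importers STP1 and STP4 had 538 and 699 against 1101 and 1261 and 212 and 285 against 443 and 459 (authors' deposited table, log2 0.93 ± 0.15, adjusted p = 2.7e-08, and 0.86 ± 0.19, adjusted p = 3.3e-04). SUC2, the sucrose loader of companion cells, had 2201 and 2245 against 2118 and 2324 and was not called (−0.00 ± 0.10 in the authors' deposited table).

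The 5 phloem markers, of which SWEET11 and SWEET12 are part, summed to 5344 and 6501 normalized reads in the diploid and 8528 and 9176 in the tetraploid libraries. Of these markers 3 were called higher, the third being SEOR1, a protein of sieve elements, with 0.54 ± 0.14 in the authors' deposited table. The phloem gene APL gave 0.04 ± 0.15 and SUC2 −0.00 ± 0.10 there. The part of phloem content in the transporter values was not tested. Amino acid transporters had 5 of 49 higher and 1 lower (12.2% called beside 5.10% over all tested genes, median 0.18). UMAMIT12, UMAMIT17 and UMAMIT20, of a family of amino acid exporters, had 279 and 393 against 756 and 692, 191 and 299 against 637 and 553 and 252 and 391 against 679.9 and 677 normalized reads. Their log2 fold changes were 1.11 ± 0.17, 1.28 ± 0.20 and 1.08 ± 0.19, and that of the amino acid permease AAP6 was 0.81 ± 0.16, in the authors' deposited table.

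Beside 3.19% called higher and 1.91% lower over all tested genes, sulfate transporters had 3 of 11 higher and 0 lower, with a median of 0.42. All 3 belonged to the third subgroup. SULTR3;4, which also distributes phosphorus, had 166 and 273 normalized reads in the diploid and 443 and 499 in the tetraploid libraries (authors' deposited table, log2 1.103 ± 0.22, adjusted p = 3.1e-05), and SULTR3;1 and SULTR3;5 rose by 0.63 ± 0.16 and 0.94 ± 0.29 there. Phosphate transporters had 0 higher and 2 lower of 13, PHT4;5 with −0.48 ± 0.11 and the plastid transporter PHT2;1 with −0.27 ± 0.08 in the authors' deposited table. Among nitrate and peptide transporters 3 of 28 rose, with NRT1.5, which loads nitrate into the xylem, at 380.4 and 480.2 against 725 and 671 (authors' deposited table, log2 0.70 ± 0.16, adjusted p = 5.2e-04). AT2G26690 and AT1G68570 of the same family rose by 0.44 ± 0.11 and 0.34 ± 0.09 in the authors' deposited table. The aquaporins PIP2B and TIP2;2 rose by 0.56 ± 0.10 and 0.44 ± 0.12 there, the 1 call among 19 plasma membrane and the 1 among 7 tonoplast aquaporins. The plasma membrane share of 5.26% was close to the 5.10% over all tested genes. The empirical null ended the calls of SWEET11, SULTR3;5, PHT2;1, AT2G26690, AT1G68570 and TIP2;2 (adjusted p from 0.053 to 0.2). In limma with 1 library left out, calls ended for SULTR3;1 and PHT4;5 without 4xLer library b, SEOR1 and SULTR3;5 without either tetraploid library, AT2G26690, AT1G68570 and TIP2;2 without any library but 2xLer library b, and PHT2;1 without any library (adjusted p from 0.056 to 0.2).

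Genes known from drought and other stress responses were called in several lists. The galactinol and raffinose genes, listed after the value of GolS2 had been seen, had 3 of 4 tested higher, a count on genes chosen for this pattern. GolS1, the relative of GolS2, had 65.9 and 71.7 normalized reads in the diploid and 119.9 and 178 in the tetraploid libraries (authors' deposited table, log2 1.11 ± 0.31, adjusted p = 0.011), and SIP2, an enzyme that cleaves raffinose, rose by 0.47 ± 0.15 there. HB-7 and HB-12, homeodomain-leucine zipper factors induced by abscisic acid and drought, had 444 and 598 against 995 and 987 and 1011 and 986 against 1697 and 1650.2 (authors' deposited table, log2 0.93 ± 0.15, adjusted p = 1.2e-07, and 0.74 ± 0.11, adjusted p = 1.1e-09). HB6, of the same group, rose by 0.45 ± 0.10 there, so that 3 of 47 homeobox genes rose and 0 fell (6.38% called). RD26 and ATAF1, NAC factors of stress responses, had 93.7 and 115 against 268 and 202 and 420.3 and 544 against 745 and 749 (authors' deposited table, log2 1.18 ± 0.25, adjusted p = 2.7e-04, and 0.63 ± 0.15, adjusted p = 0.002). With NAC036, which had 29.7 and 27.9 against 85.5 and 75.0, they were the 3 of 62 NAC genes called, all higher, and that share of 4.84% was below the 5.10% over all tested genes.

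ERF4, a repressor of ethylene-responsive genes, had 302 and 399 normalized reads in the diploid and 889 and 971 in the tetraploid libraries (authors' deposited table, log2 1.41 ± 0.16, adjusted p = 2.1e-16). It was among 2 higher (with ERF8, 0.88 ± 0.23) and 1 lower (RAP2.4, −0.34 ± 0.11) of 32 in the authors' deposited table. Of 62 MYB genes 5 rose and 2 fell (11.3% called beside 5.10% over all tested genes). The MYB genes named by the rule were MYBR1, also called MYB44 (0.64 ± 0.12), the anthocyanin activator PAP1 (0.84 ± 0.15), MYB96, an activator of wax synthesis (0.70 ± 0.19), and MYB102 (1.46 ± 0.42), with values from the authors' deposited table. Of 7 zinc fingers of the ZAT type 2 rose, ZAT6 by 1.91 ± 0.52 and ZF2 by 1.095 ± 0.36 there. LBD1 had 10.2 and 14.9 against 91.4 and 85.9 (authors' deposited table, log2 2.82 ± 0.48, adjusted p = 4.5e-07), and LBD37, a repressor of nitrogen-responsive genes, fell by 0.43 ± 0.11. CDF1 and CDF3, DOF factors of the day-length pathway, rose by 0.50 ± 0.11 and 0.56 ± 0.11 in the authors' deposited table. Under the empirical null GolS1, SIP2, NAC036, ERF8, RAP2.4, MYB96, MYB102, ZAT6, ZF2 and LBD37 were no longer called (adjusted p from 0.07 to 0.24). With 1 library left out in limma, no call remained for GolS1, HB6 and ZAT6 without 4xLer library b, NAC036 and LBD37 without 4xLer library a, ATAF1, MYB96, MYB102 and ZF2 without either tetraploid library, and SIP2 and RAP2.4 without any library but 2xLer library b (adjusted p from 0.05 to 0.19).

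Transcripts for wax and suberin synthesis were called in a few members, beside 5.10% called over all tested genes. CER1, which makes wax alkanes, rose by 0.33 ± 0.10, and together with MYB96 made 2 of 18 wax genes higher in the authors' deposited table. CYP86A1 and RWP1, which act in suberin synthesis, had 0.928 and 7.97 against 25.5 and 47.8 and 32.5 and 64.8 against 97.3 and 125 normalized reads in the 2 ploidies (authors' deposited table, log2 3.06 ± 0.82, adjusted p = 0.0074, and 1.196 ± 0.38, adjusted p = 0.036). They were the 2 called of 17 cutin and suberin genes, of which 16 had positive fold changes. In both genes 2xLer library b lay above library a, and the log2 ratio of CYP86A1 was 2.203 without 2xLer library a and 5.30 without library b. From the carotenoid list, NCED3, the enzyme that sets the pace of abscisic acid synthesis under drought, had 62.2 and 91.7 normalized reads in the diploid and 149 and 147 in the tetraploid libraries (authors' deposited table, log2 0.95 ± 0.30, adjusted p = 0.035). It was the 1 higher beside 2 lower of 16 tested. NCED3, CER1, MYB96, CYP86A1 and RWP1 were not called under the empirical null (adjusted p from 0.074 to 0.22). Leaving out 1 library in limma ended the calls of CYP86A1 without 4xLer library b, NCED3, MYB96 and RWP1 without either tetraploid library, and CER1 without 2xLer library a or 4xLer library a (adjusted p from 0.05 to 0.23).

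Metal and redox genes moved in both directions, beside 3.19% called higher and 1.91% lower over all tested genes. NRAMP4, which releases iron from the vacuole, had 1042 and 1064 normalized reads in the diploid and 1924 and 1850.2 in the tetraploid libraries (authors' deposited table, log2 0.84 ± 0.11, adjusted p = 5.2e-13). The bHLH list was gathered by gene symbol and may hold only part of the family, so its share called is not that of the family. Of its 24 tested genes 5 rose and 1 fell. Among those that rose were bHLH38, bHLH39, BHLH100 and BHLH101, the iron deficiency factors of subgroup Ib, with 1.94 ± 0.40, 1.71 ± 0.49, 1.74 ± 0.40 and 2.09 ± 0.55 in the authors' deposited table. In these 4 genes, unlike most called genes, 2xLer library b lay below library a. The copper chaperone CCH had 1152 and 1300 against 1720.3 and 2201 (authors' deposited table, log2 0.68 ± 0.13, adjusted p = 1.7e-05), whereas CCS, the chaperone of copper/zinc superoxide dismutases, and the plastid dismutase CSD2 fell by 0.48 ± 0.11 and 0.34 ± 0.09 there. Of 22 genes of reactive oxygen scavenging 3 rose and 2 fell. APX1, the cytosolic ascorbate peroxidase, had 7116 and 8260.5 against 4484 and 5508 (authors' deposited table, log2 −0.62 ± 0.11, adjusted p = 1.9e-06), and VTC2, which commits sugar to ascorbate, had 46475 and 42321 against 31771 and 33102 (authors' deposited table, log2 −0.45 ± 0.08, adjusted p = 2.2e-06). The catalase CAT3 rose by 0.69 ± 0.12 and the alternative oxidase AOX1A by 0.56 ± 0.16 there. Calls lost to the empirical null were bHLH39, BHLH101, CSD2 and AOX1A (adjusted p from 0.05 to 0.13). Calls ended in limma for BHLH101 and VTC2 without 4xLer library a, CCS without 4xLer library b, CSD2 without 2xLer library a or 4xLer library b, and AOX1A without any library but 2xLer library b (adjusted p from 0.055 to 0.21).

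In primary metabolism calls were few and mostly small, beside 3.19% called higher and 1.91% lower over all tested genes. HEMA1, the glutamyl-tRNA reductase at the start of tetrapyrrole synthesis, had 11075 and 11398 normalized reads in the diploid and 6362 and 7059.7 in the tetraploid libraries (authors' deposited table, log2 −0.74 ± 0.09, adjusted p = 1.6e-15). With CHLM (−0.25 ± 0.08) lower and PORB (0.33 ± 0.09) higher, it made 2 lower and 1 higher of 21 chlorophyll genes in the authors' deposited table. The carotene hydroxylases BETA-OHASE 1 and BETA-OHASE 2 fell by 0.41 ± 0.09 and 0.29 ± 0.09 there. NIR1, nitrite reductase, had 7767 and 8404 against 5485 and 5778 (authors' deposited table, log2 −0.52 ± 0.09, adjusted p = 1.5e-07). The ammonium transporters AMT1;1 and AMT1;2 went in opposite directions, with 0.36 ± 0.11 and −0.27 ± 0.08 in the authors' deposited table. Starch breakdown had 3 of 17 genes higher and 0 lower, the amylase BAM1 (0.36 ± 0.10), the glucan phosphatase SEX4 (0.49 ± 0.14) and the dikinase PWD (0.31 ± 0.10). APL3, the 1 called of 16 starch synthesis genes (6.25% beside 5.10% over all tested genes), rose by 0.67 ± 0.16 in the authors' deposited table. P5CS1 and P5CR, which act in sequence in proline synthesis, gave 0.43 ± 0.10 and −0.35 ± 0.11, and GAD2, glutamate decarboxylase, 0.35 ± 0.09 there. The empirical null ended the calls of CHLM, PORB, BETA-OHASE 2, AMT1;1, AMT1;2, BAM1, SEX4, PWD, P5CR and GAD2 (adjusted p from 0.068 to 0.25). In limma with 1 library left out, calls ended for SEX4, APL3 and P5CS1 without 4xLer library a, BETA-OHASE 1 without either tetraploid library, PORB, BETA-OHASE 2, AMT1;1, BAM1, PWD, P5CR and GAD2 without any library but 2xLer library b, and CHLM and AMT1;2 without any library (adjusted p from 0.054 to 0.26).

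Some regulators of growth fell, beside 1.91% called lower over all tested genes. Of 14 cytokinin response regulators 3 fell and 0 rose, with a median of −0.31 and 2 positive values. ARR7, ARR15 and ARR4, type-A regulators that are induced by cytokinin and dampen its signal, had 887 and 774 against 569 and 519.6, 569.7 and 537 against 345 and 350 and 2244 and 2027 against 1596 and 1752 normalized reads. Their log2 fold changes were −0.61 ± 0.14, adjusted p = 7.8e-04, −0.67 ± 0.16, adjusted p = 8.7e-04, and −0.35 ± 0.11, adjusted p = 0.023 in the authors' deposited table. TCP3 and TCP4, which restrain cell division at the leaf margin, fell by 0.38 ± 0.11 and 0.43 ± 0.11 and were the 2 called of 19 TCP genes there. SAUR genes, short auxin-induced genes of cell expansion, had 3 of 44 lower and 0 higher, AT1G72430 with −0.64 ± 0.12, AT4G38860 with −0.49 ± 0.15 and AT4G38840 with −0.38 ± 0.12 in the authors' deposited table. The auxin repressors IAA8 and IAA9 gave −0.32 ± 0.09 and 0.33 ± 0.09, the auxin response factor ARF8 −0.36 ± 0.11 and the auxin exporter PIN4 0.38 ± 0.12 there. IAA8 and IAA9 were the 1 lower and 1 higher of 22 such repressors tested (9.09% called). ARF8 was the 1 called of 17 auxin response factors (5.88%) and PIN4 of 18 other auxin genes (5.56%), close to the 5.10% over all tested genes. IBH1, an inhibitor of brassinosteroid-driven elongation, rose by 1.22 ± 0.36, KAI2, the karrikin receptor, by 0.66 ± 0.14, and EFE, an ethylene-forming oxidase, by 0.64 ± 0.13 in the authors' deposited table. IBH1 was the 1 called of 18 brassinosteroid genes (5.56%) and EFE of 15 ethylene genes (6.67%), again close to the share over all tested genes. KAI2 was among 2 called of 9 strigolactone and karrikin genes. The 4 shoot meristem markers summed to 321 and 420.4 normalized reads in the diploid and 275 and 301 in the tetraploid libraries, lower in both tetraploid libraries. WUS and CLV3 had at most 2.99 normalized reads in any library, and STM and KNAT1, which keep meristem cells undifferentiated, gave −0.40 ± 0.31 and −0.34 ± 0.22 and were not called in the authors' deposited table. The part of meristem content in the values of growth regulators was not tested. Under the empirical null ARR4, TCP3, TCP4, AT4G38860, AT4G38840, IAA8, IAA9, ARF8, PIN4 and IBH1 were no longer called (adjusted p from 0.057 to 0.24). With 1 library left out in limma, no call remained for ARR7, IBH1 and EFE without 4xLer library b, TCP4 without 4xLer library a, AT4G38860 and AT4G38840 without either tetraploid library, and ARR4, TCP3, IAA8, IAA9, ARF8 and PIN4 without any library but 2xLer library b (adjusted p from 0.051 to 0.2).

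Cell wall genes were called in both directions, beside 3.19% called higher and 1.91% lower over all tested genes. Extensins and proline-rich proteins, which stiffen walls, had EXT3 at 804 and 913 normalized reads in the diploid and 1469 and 1435 in the tetraploid libraries (authors' deposited table, log2 0.76 ± 0.12, adjusted p = 2.1e-08) and PRP2 at 961 and 1341 against 1867 and 1728 (authors' deposited table, log2 0.64 ± 0.14, adjusted p = 3.3e-04), 2 of 7 tested. The peroxidase PRXCA had 115 and 198 against 347 and 330.5 (authors' deposited table, log2 1.12 ± 0.24, adjusted p = 2.7e-04). The pectin methylesterases PMEPCRA and PME3 rose by 0.69 ± 0.15 and 0.51 ± 0.11, and PME5 fell by 0.61 ± 0.12 in the authors' deposited table. Among xyloglucan-modifying enzymes XTH16 and XTH19 rose by 0.48 ± 0.15 and 1.04 ± 0.34 and XTH31 fell by 0.52 ± 0.12 there. The expansin EXPA16, the 1 called of 15 (6.67% beside 5.10% over all tested genes), rose by 0.81 ± 0.22 in the authors' deposited table. Cellulose synthase-like genes had 3 lower, CSLE1 (−0.52 ± 0.12), CSLB03 (−0.46 ± 0.13) and ATCSLA15 (−0.58 ± 0.17), and 1 higher, CSLG3 (0.53 ± 0.16), of 24 there. Arabinogalactan proteins had 0 called of 40 in the authors' deposited table, 6 at an unadjusted p under 0.05 and 2 higher and 0 lower in limma.

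Laccases, which polymerise lignin, had a median of 0.79 over 10 tested, the highest median among families with at least 10 tested, and 1 called. That gene, LAC4 (listed as IRX12), had 157 and 235 normalized reads in the diploid and 309 and 365 in the tetraploid libraries (authors' deposited table, log2 0.79 ± 0.22, adjusted p = 0.013). The 5 xylem markers summed to 764 and 1320 normalized reads in the diploid and 1856 and 1818 in the tetraploid libraries, and 0 of them were called, with 0.056 for XCP1 as the smallest adjusted p in the authors' deposited table. In the xylem markers as in LAC4, 2xLer library b lay well above library a. The part of xylem content in the wall gene values was not tested. XTH16, XTH19, EXPA16, CSLB03, ATCSLA15, CSLG3 and LAC4 were not called under the empirical null (adjusted p from 0.1 to 0.23). Leaving out 1 library in limma ended the calls of PRP2 and XTH31 without 4xLer library a, PMEPCRA, PME3, PME5, XTH19, EXPA16, CSLE1, ATCSLA15 and LAC4 without 4xLer library b, CSLB03 and CSLG3 without 2xLer library a or 4xLer library b, and XTH16 without any library but 2xLer library b (adjusted p from 0.061 to 0.27).

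Lists of chromosome and genome maintenance held 0 or 1 call each, and at the 5.10% of all tested genes lists of their sizes would hold about 1 or fewer. Core histones other than H3 had 0 called of 21, with 4 at an unadjusted p under 0.05 and 0 in limma, and a median of 0.05. DNA damage genes had 0 called of 18, with 2 at an unadjusted p under 0.05 and 0 in limma, and 4 of them were positive. The smallest p was that of RAD50, a subunit of the complex that senses double-strand breaks, with 747 and 641 normalized reads in the diploid and 644 and 419.6 in the tetraploid libraries (authors' deposited table, log2 −0.38 ± 0.18, adjusted p = 0.27). RAD50 overlapped between the ploidies. Genes of chromosome condensation and cohesion had 0 called of 10, 0 at an unadjusted p under 0.05 and 0 in limma, with 1 positive. Among regulators of cell size and endoreduplication 1 of 17 fell. This was FZR3, also known as CCS52B, an activator of the anaphase-promoting complex, with 972 and 835 against 647 and 626 (authors' deposited table, log2 −0.51 ± 0.13, adjusted p = 0.0064). Organ growth regulators had 0 called of 20, 4 at an unadjusted p under 0.05 and 0 higher and 4 lower in limma. Their median was −0.23, with 4 positive, and the smallest p was that of BB, a ubiquitin ligase that limits organ size (−0.50 ± 0.17, adjusted p = 0.063 in the authors' deposited table).

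Proteasome subunits mostly had small positive fold changes, and 7.14% were called beside 5.10% over all tested genes. Of 42 tested 35 had positive fold changes, against 9136 of 18683 over all genes, with a median of 0.15. The 3 called were PBC1, PAD1 and RPN10, with 0.39 ± 0.11, 0.31 ± 0.10 and 0.30 ± 0.10 in the authors' deposited table, and 0 fell. Tubulins had 0 called of 15, 4 at an unadjusted p under 0.05 and 2 higher and 0 lower in limma. SR splicing factors had 2 of 17 lower and 0 higher, with 2 positive values. SR45a had 1457 and 1200.4 against 767 and 761 (authors' deposited table, log2 −0.80 ± 0.13, adjusted p = 9.6e-08) and SR30 1137 and 959 against 739 and 676 (authors' deposited table, log2 −0.57 ± 0.13, adjusted p = 0.0012). In the plastid, PTAC16, a protein of the transcriptionally active chromosome, had 23947 and 20676 against 16285 and 15277 (authors' deposited table, log2 −0.50 ± 0.09, adjusted p = 3.8e-06), 1 of 24 genes of plastid transcription, of which 4 were positive. Autophagy had ATG8C higher (0.67 ± 0.21) of 30, and folding in the endoplasmic reticulum had the chaperones SHD and CRT3 higher (0.29 ± 0.08 and 0.44 ± 0.14) of 17 in the authors' deposited table. The shares called in plastid transcription (4.17%) and autophagy (3.33%) were below that over all tested genes. Calls lost to the empirical null were FZR3, PBC1, PAD1, RPN10, ATG8C, SHD and CRT3 (adjusted p from 0.087 to 0.25). Calls ended in limma for SR30, PTAC16 and ATG8C without 4xLer library b, CRT3 without 4xLer library a, FZR3 without either tetraploid library, and PBC1, PAD1, RPN10 and SHD without any library but 2xLer library b (adjusted p from 0.053 to 0.26).

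The families and pathways described here come from 100 lists that held 2068 tested genes, 206 of them called (9.96% beside 5.10% of all tested genes), 148 higher and 58 lower (beside 596 and 356 of all). The lists were chosen with earlier results of these data known. Family lists were gathered by gene symbol and may hold only part of a family, so counts and shares are those of the list. More members rose than fell in 59 lists, more fell than rose in 15, 8 had equal numbers and 18 had no call in the authors' deposited table. The 41 bZIP factors tested were the largest family without a call, with 4 at an unadjusted p under 0.05 and 1 higher and 3 lower in limma. No test was made of any list as a whole.

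**Figure D3:**
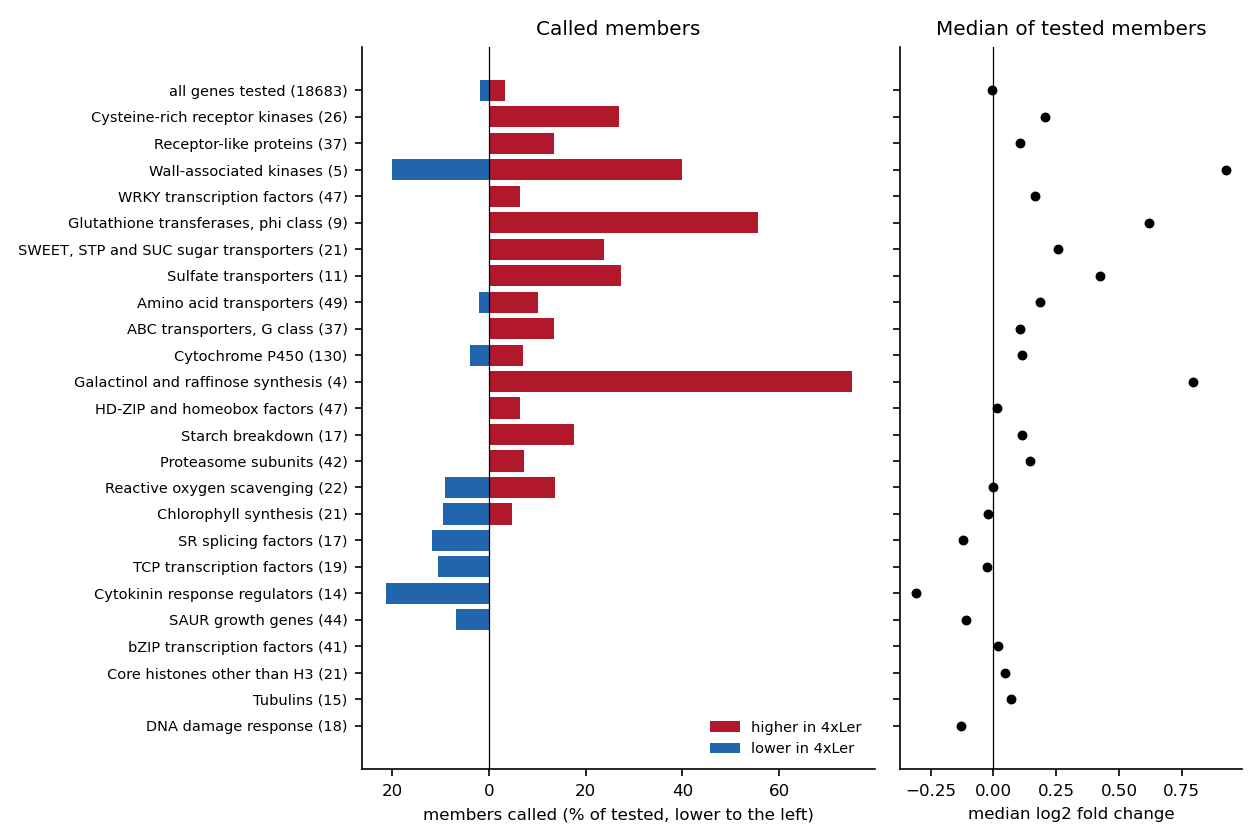
Left, share of tested members called higher (to the right, red) and lower (to the left, blue) in the authors' deposited table for selected families, pathways and all genes, with the number tested in brackets. Right, the median log2 fold change of the same members. Among the lists shown, receptor, phi-class glutathione transferase and sugar, sulfate, amino acid and class G ABC transporter families have their calls mainly on the higher side. Cytokinin response regulators and SAUR genes have theirs on the lower side, and histones and DNA damage genes have none. Phosphate transporters and ABC classes B and C, not shown, had 0 higher and 2 lower each.

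A set of called genes had almost no reads in the diploid. Of the 952 called genes, 22 had at most 3 reads over both diploid libraries and 12 had 0, while 0 had at most 3 over both tetraploid libraries. Against a floor of 3 reads over the group, AT1G08740, a pseudogene in the reference table, with 466 tetraploid reads, was at least 167-fold higher. On the same floor AT1G40087 with 280 reads was at least 100.3-fold higher, and AT1G21020, AT3G26530 and AT5G44890, all pseudogenes there, at least 63.7-fold, 60.9-fold and 54.1-fold. Both tetraploid libraries had reads in all 22. Summed over both, these reads were most in AT1G35617 (300 and 308) and fewest in MSRB8, a methionine sulfoxide reductase (13 and 15). The lowest single library was that of AT2G16690 (22 and 8). AT1G35617 had 2 diploid and 608 tetraploid reads, a normalized ratio of 327 with a 95% interval from 90.0 to 2703, and AT2G16680 and AT4G03156 had 1 diploid read each, with ratios of 314 with a 95% interval from 55.9 to 12430 and 193 with a 95% interval from 34.3 to 7679. Floors and intervals cover counting error only. Whether the diploid and tetraploid Ler lines differ in more than ploidy was not tested. Of these 22 genes 9 lost their call under the empirical null or in limma with a library left out, MSRB8 among them.

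**Figure D4:**
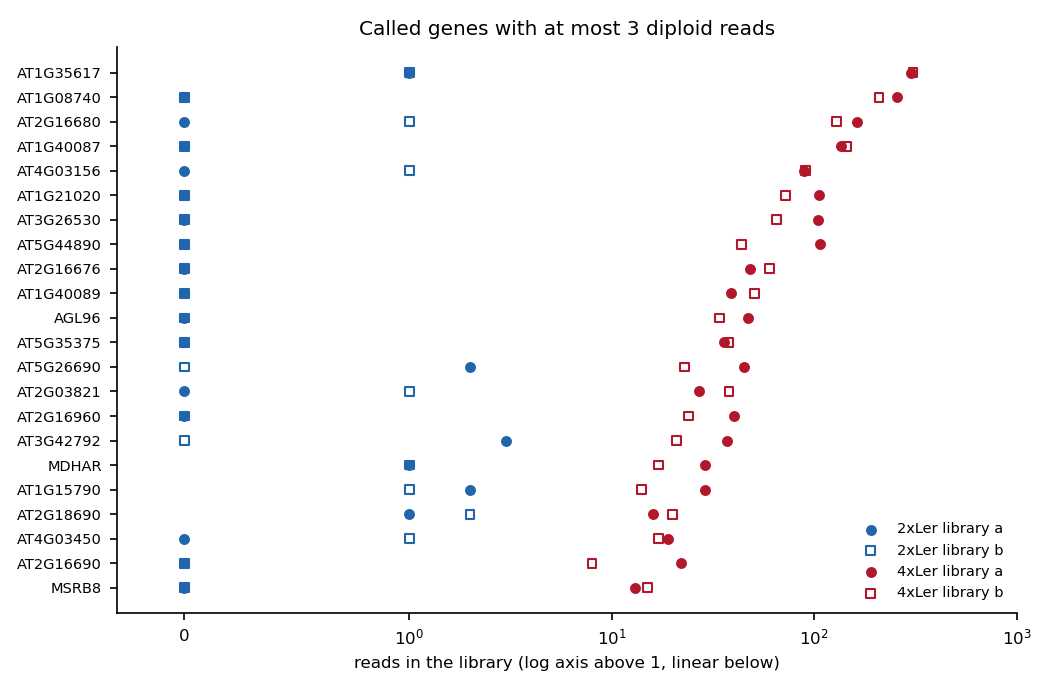
Reads in each library, without normalization, of the 22 called genes with at most 3 reads over both diploid libraries, on an axis that is linear up to 1 read and logarithmic above. Diploid points (blue) lie at 0 to 3 reads, and tetraploid points (red) from 8 to 308 reads.

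Some called genes lay side by side. Of 22715 pairs of neighbouring genes, 62 had both members called, 51 of them in the same direction. How many such pairs would arise from calls placed without regard to position was not computed, so the count does not show clustering. Runs of 3 or more called neighbours numbered 3. The longest, on chromosome 4, held CRK5, CRK7, CRK8, EP1 and CRK10, all higher, of which CRK5 and CRK8 gave 2.42 ± 0.67 and 2.75 ± 0.81 in the authors' deposited table. A run on chromosome 2 held AT2G16676, AT2G16680 and AT2G16690, with 0, 1 and 0 diploid reads against 108, 292 and 30 in the tetraploid. On chromosome 5, LTI65 and LTI78, dehydration and cold-induced proteins, lay beside CYP96A4, with 53.8 and 93.6 against 209 and 178, 201 and 247 against 490.2 and 365 and 198 and 246 against 431 and 426 normalized reads (authors' deposited table, log2 1.40 ± 0.30, 0.93 ± 0.20 and 0.95 ± 0.19). The share of tested genes called ran from 4.53% on chromosome 5 to 5.6% on chromosome 1, so calls were spread over all 5 chromosomes. The empirical null ended the calls of CRK5, CRK8 and AT2G16690 (adjusted p from 0.1 to 0.14). In limma with 1 library left out, calls ended for CRK5 and CRK8 without 4xLer library b, LTI78 without 4xLer library a, and AT2G16690 without either tetraploid library (adjusted p from 0.057 to 0.17).

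Gene length went with the calls and with the order of the libraries. Genes were put in 6 classes of about equal size by length of the gene in the reference table. The classes held 2579 to 2595 genes each, which is a part of the genes tested. Of the shortest genes 6.34% and of the longest 2.36% were called higher, and 2.24% and 2.36% were called lower. The median log2 fold change fell from 0.03 in the shortest to −0.06 in the longest class. The median difference of 4xLer library a minus library b went from −0.10 to 0.12 over the same classes, a range wider than that between the ploidies. The part of length-related differences between libraries in the calls was not tested beyond a limma fit without the length trend, which called 2172 genes and kept 949 of the 952.

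Markers of other tissues were used to check the labelled seedlings. Leaf markers were abundant, and of 5 tested LHCA1, an antenna protein of photosystem I, was called (−0.28 ± 0.07 in the authors' deposited table). Guard cell markers summed to 1581 and 1662 normalized reads in the diploid and 1639 and 1751 in the tetraploid libraries and trichome markers to 799.8 and 715 normalized reads in the diploid and 716 and 622 in the tetraploid libraries, with 0 called among 5 tested of each. Of 4 markers of the stomatal lineage, MUTE, which ends the divisions of the meristemoid, rose, with 122 and 153 against 241 and 235 (authors' deposited table, log2 0.79 ± 0.23, adjusted p = 0.017). Root markers summed to 2578 and 2385 normalized reads in the diploid and 1993 and 1986 in the tetraploid libraries. Most of these reads were of SCR and SHR, with means of 1669 and 548, and the sum says little about root content. MYB66 and SHV2 had means of 14.6 and 1.92. SCR, which is also active in leaves, fell by 0.41 ± 0.10 in the authors' deposited table, while the root hair marker PRP3 had at most 1.99 normalized reads in any library. Seed markers summed to 2.78 and 19.9 normalized reads in the diploid and 1.96 and 1.09 in the tetraploid libraries and pollen markers to 3.71 and 11.95 normalized reads in the diploid and 2.95 and 3.26 in the tetraploid libraries, so both were near 0 and highest in 2xLer library b. The smallest p among guard cell markers was that of FMA, at 0.1 after adjustment in the authors' deposited table. Under the empirical null LHCA1, MUTE and SCR were no longer called (adjusted p from 0.061 to 0.14). With 1 library left out in limma, no call remained for SCR without 4xLer library b, MUTE without either tetraploid library, and LHCA1 without any library (adjusted p from 0.05 to 0.21).

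The companion table allows the ploidy difference of Ler to be set beside that of Col-0, from 4 other libraries. A Wald test of the difference between the log2 fold changes of Ler and Col-0 called 1860 of 21361 shared genes, 8.71%, at an adjusted p under 0.05, 1061 more positive in Ler and 799 more negative. With an empirical null 943 remained. ECS1 was higher in tetraploid Ler and lower in tetraploid Col-0, where the authors' deposited table gave −1.90 ± 0.17, a difference of 5.63 ± 0.31 (Wald test, adjusted p = 2.4e-70). AT5G10760 behaved likewise, with −1.82 ± 0.23 in the authors' deposited table for Col-0 and a difference of 5.21 ± 0.33 (adjusted p = 2.7e-52). ACD6 gave −0.36 ± 0.11 in Col-0 in the authors' deposited table, a difference of 4.39 ± 0.31 (adjusted p = 1.6e-42), and GolS2 0.09 ± 0.43, a difference of 3.52 ± 0.55 (adjusted p = 1.0e-08). In these 4 genes the difference between the tetraploid and the diploid libraries was thus not the same in the 2 ecotypes, and the part of ploidy in it was not tested, given the ESP and ESM1 values of tetraploid Col-0 above.

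Receptors differed as well. RLP41, RLP38 and RLP23 gave −5.18 ± 0.46, −1.18 ± 0.31 and −0.86 ± 0.30 in the authors' deposited table for Col-0, and differences of 7.34 ± 0.62, 3.94 ± 0.53 and 4.85 ± 0.68 (adjusted p = 6.7e-30, 1.8e-11 and 1.3e-10). NRT1.5 fell in Col-0 (−2.18 ± 0.16 in the authors' deposited table) and rose in Ler, a difference of 2.88 ± 0.22 (adjusted p = 1.4e-34). SWEET12 had −1.82 ± 0.27 in Col-0 in the authors' deposited table and differed by 3.45 ± 0.36 (adjusted p = 6.4e-19), whereas for STP1, with 0.68 ± 0.14 there, a difference was not detected (0.25 ± 0.20, adjusted p = 0.61). SR45a rose in Col-0 (0.75 ± 0.12 in the authors' deposited table) and fell in Ler (difference −1.55 ± 0.18, adjusted p = 5.6e-16). CAT3 fell in Col-0 (−0.52 ± 0.07 in the authors' deposited table) and rose in Ler (difference 1.21 ± 0.14, adjusted p = 3.5e-16). For FER1, AIG1, HEMA1, HB-7 and HB-12 no difference between ecotypes was detected, with Col-0 values of −1.32 ± 0.09, 2.46 ± 0.97, −0.78 ± 0.07, 0.71 ± 0.19 and 1.00 ± 0.15 in the authors' deposited table and adjusted p of the difference from 0.55 to 0.95.

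**Figure D5:**
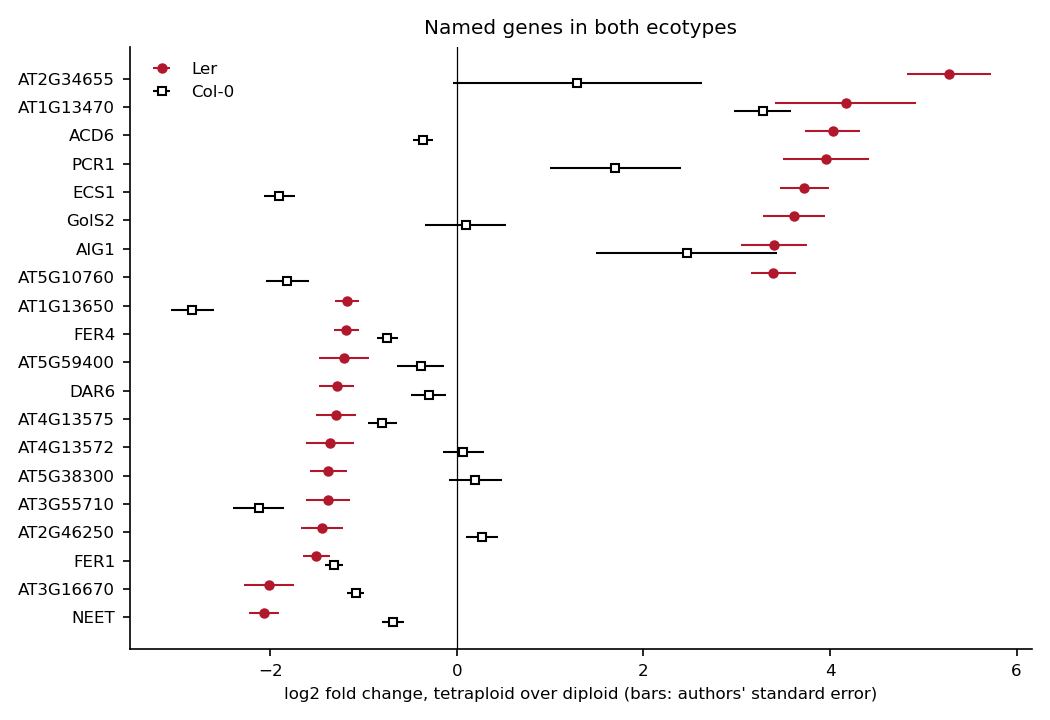
Log2 fold change (tetraploid over diploid) in Ler (filled circles) and Col-0 (open squares) of the highest and lowest Ler genes that both tables list, with bars for the authors' standard errors. ECS1, AT5G10760, ACD6 and GolS2 lie above 3 in Ler and near or below 0 in Col-0, and FER1 lies below −1 in both.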

How the data were processed

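Per the labels' protocols, poly(A) RNA was selected from total RNA and NEBNext Ultra libraries were prepared, and the sources used here do not state whether reads were counted by strand. Tools named in the submitters' processing notes are HISAT2, Subread and DESeq2, and the build is TAIR10, with no versions. The authors deposited 1 table of a comparison per ecotype, each normalized separately. Per the file headers, the mean count is a signal, the authors' average over 4 libraries of counts divided by size factors. The log2 fold change and its standard error are the authors' values, unshrunken. The Wald statistic is the authors' score, their ratio. The deposited p-value is the authors' Wald p, with a Benjamini-Hochberg adjusted value that is blank for 4376 Ler genes of low mean. Columns of per-sample values left unused numbered 0.

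Whole counts per library were solved from the means, which are printed to 15 digits. Of 23048 genes solved, 22064 had a single solution from the mean and 252 needed the deposited fold change, matched within 0.001. In the other 732 a ploidy had at most 3 reads and the mean alone was used. Median-of-ratios size factors of the recovered counts equalled those read from the lowest means within 9.8e-05. The authors' test stayed the main one. The alternative fit was limma 3.58.1 with trend (R 4.3.3, Python 3.11.15) on log2(normalized count + 1), tested on simulated data, where it made more false calls than its threshold allows. Other alternatives were a pseudocount of 0.5, minimum means of 10 and 100, no filter, recentring on the median, an empirical null and each library left out. Intervals are 95% exact binomial.

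Called means an adjusted p under 0.05 in the authors' deposited table. Named genes are the 12 called genes with the highest and the 12 with the lowest fold change at a mean of at least 100, and in each list described up to 4 called members with the smallest adjusted p or, with none called, the member with the smallest p. Up to 5 called genes of highest mean without reads in 1 ploidy, and members of up to 5 runs of at least 3 called neighbours, complete the rule. Other names were chosen after their values were seen. Members and lists were chosen with earlier results of these data known, unrelated symbols were removed after matching, and the galactinol list was added after values were seen. Identifiers were matched to a RefSeq gene table of TAIR10.1 (98.5% matched), used for names, order, length and gene type only.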

Additional observations from a re-analysis of the deposited data

Results flagged for a closer look

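Both tables list 218 called Ler genes of the naming rule. These were chosen for their calls in Ler, and a test of Ler minus Col-0 uses those values again. The share among them therefore cannot be weighed against that of all genes. The Wald test of the difference itself, with adjustment over 21361 shared genes, called 1860 of these (8.71%). Among the 218, the tetraploid minus diploid difference was not the same in Ler and Col-0 in 119, 81 more positive and 38 more negative in Ler. Given here are those among the highest and lowest genes, the genes without diploid reads and the runs of neighbours, with those set beside Col-0 above and MSRB8, which were chosen after their values were seen. The Ler value was above the Col-0 value, on the log2 scale, by 7.34 in RLP41, 6.04 in MSRB8, 5.65 in CRK7, 5.63 in ECS1, 5.21 in AT5G10760, 4.85 in RLP23, 4.39 in ACD6, 3.94 in RLP38, 3.52 in GolS2, 3.45 in SWEET12, 2.88 in NRT1.5, 2.17 in EP1, 1.66 in AT1G13650, 1.27 in CRK10, 1.21 in CAT3 and 0.79 in CYP96A4. In AT1G13650 both values were negative and that of Col-0 was the lower. The Ler minus Col-0 difference was −1.72 in AT2G46250, −1.57 in AT5G38300, −1.55 in SR45a, −1.43 in AT4G13572, −1.38 in NEET, −0.98 in DAR6 and −0.93 in AT3G16670. The 2 ecotypes' tables share no library, and their annotations and normalizations differ. Whether the lines of either ecotype differ in more than ploidy was not tested.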

How the results depend on the processing

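The count of 952 called genes became 418 with an empirical null, 1948 in limma with a pseudocount of 1, 1916 with 0.5, and 2172 in limma after removal of a gene length trend, an alternative chosen after seeing the data. Leaving out each library in turn in limma gave 417 to 3255 calls, highest without 2xLer library b. Without a filter, with minimum means of 10 and 100 and with recentring the count ran from 893 to 960. The 1860 genes that differed between ecotypes became 943 with an empirical null. The causes of these changes were not tested. Of 233 called genes of the naming rule 100 were not called under the empirical null, and 49, 4, 90 and 102 without 2xLer library a, 2xLer library b, 4xLer library a and 4xLer library b, in fits whose spread rests on the 2 libraries of 1 ploidy. Without a filter 8 lost their call (FEI1, PIN4, ZF2, PAD4, XTH19, RPN10, PWD and BETA-OHASE 2), with recentring 5 (FEI1, AMT1;2, CHLM, AT4G38840 and BETA-OHASE 2) and with a pseudocount of 0.5 in limma 1 (CHLM). None of 1324 alternative values for the named genes changed sign where called. Of 1200 recounts of the lists, chosen after seeing the data, 719 stayed within 1.5 times the count given. No paired analysis was possible because the recovered libraries carry no replicate number. With 2 libraries per ploidy, the median standard error of 0.16 on the log2 scale at means of at least 100 limits what could be called.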
